A study of Mus musculus with 9 samples.

Results

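The 40 genes described here are type I interferon-stimulated genes, a list of named genes whose transcription is switched on by interferon alpha and beta. They were looked up by symbol in the raw count matrix of a hippocampal RNA sequencing study, and all 40 were found once among the 47643 genes of the matrix, on 15 chromosomes. Gene positions below are those of GENCODE M21 on GRCm38. The study sequenced poly(A) RNA from whole hippocampus of mice in 3 groups with 3 libraries each, all labelled as 6 weeks old. The first group, MRL/mpj, was the control strain and is labelled untreated. The second, MRL/lpr, carries the lpr insertion in Fas on the same MRL background and is also labelled untreated, although the series title speaks of PBS. The third, MRL/lpr+MSC, carries the same lpr genotype and was given mesenchymal stem cells, whose source, dose, route and timing are not given in the sources used here. Fas lpr is a germline change, present in every cell of the mouse, and mice of the lpr strain develop lupus spontaneously with an expansion of lymphocytes. Whole hippocampus holds many cell types, so a lower count of a gene cannot be told apart from fewer cells that express it. The labels number the libraries within a group, and the study describes those of its comparison of MRL/mpj with MRL/lpr as individual mice. The same is not stated for MRL/lpr+MSC in the sources used here. Which deposited lpr group the study describes is uncertain, since its table of values and its list of changed genes differ on this, as below. The p-values with an lpr group therefore measure only the spread between its libraries, which may be technical.

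Interferon alpha and beta bind a receptor made of IFNAR1 and IFNAR2, which acts through the kinases TYK2 and JAK1. STAT2 and IRF9 then act in the complex ISGF3, which binds a DNA element, the interferon-stimulated response element, in front of the genes listed here. Their products sense foreign nucleic acid, block viral entry, translation and assembly, or feed back on the pathway itself. Interferon gamma uses a separate receptor, and it induces some of the same genes. In the brain microglia, astrocytes, endothelial cells and neurons can all respond, and a raised blood level of these transcripts is a known feature of lupus.

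Some facts on the libraries bear on every value below. Total counts ran from 19475804 to 26912031 per library, and 3 counts, the upper limit that a count of 0 allows, correspond to 0.105 to 0.163 CPM. This limit covers counting error only. CPM are counts scaled to a common library size, here with library sizes corrected by the trimmed mean of M-values (TMM). Fas, counted over the whole gene, did not separate the groups and so checked no label, at 2, 1.85 and 1.63 CPM in MRL/mpj, 2.27, 1.34 and 1.78 CPM in MRL/lpr and 0.986, 1.12 and 1.81 in MRL/lpr+MSC. The labels name the strain C57BL/6 for all 9 libraries, where the study's methods give MRL/MpJ and MRL/MpJ-Fas lpr. In a table of values that accompanies the study, the 3 columns headed MRL/lpr were constant multiples of the libraries deposited as MRL/lpr+MSC, and the 3 columns headed MRL/mpj matched the libraries deposited as MRL/mpj. The 2 lpr groups may thus be exchanged in one of these sources, and which one was not tested. Among genes of pathways that differ between MRL/mpj and MRL/lpr, the study lists Ifng and Zbp1. Both had their highest counts, given below, in libraries deposited as MRL/lpr. For these genes the study's list goes with the deposited labels. Group names are those of the deposited labels, and values of both lpr groups are given side by side. The libraries labelled MRL/lpr replicate 2 and MRL/lpr+MSC replicate 2 had the most choroid plexus RNA, with 9571 and 4813 summed CPM of 6 markers against 99.2 to 1063 in the other 7. The 7 markers of hippocampal neurons were present in all libraries, with a lower sum in every lpr library than in any control library. The sums were 867 to 1026 CPM in MRL/mpj, 542 to 714 in MRL/lpr and 630 to 776 in MRL/lpr+MSC.

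All 40 genes had a higher mean CPM in MRL/lpr than in MRL/mpj, and 34 of the 40 had a higher mean in MRL/lpr+MSC than in MRL/mpj. The mean of MRL/lpr+MSC was below that of MRL/lpr for 40 of the 40, and for the same 34 genes it lay between the means of the other groups. The 6 genes with their lowest mean in MRL/lpr+MSC were Ifit3, Ifit3b, Xaf1, Ifi35, Slfn2 and Slfn5. The highest of the 9 libraries was an MRL/lpr library for all 40 genes, replicate 1 for 25 of them, replicate 2 for 14 and replicate 3 for Cmpk2 alone. Within MRL/lpr, replicate 3 was the lowest library for 38 genes. How many of all genes have these orders of group means and of libraries was not counted. The median over the 40 genes, on the log2(CPM + 0.5) scale against the MRL/mpj mean, was 1.28, 1.24 and 0.61 in the MRL/lpr libraries and 0.26, 0.39 and 0.49 in the MRL/lpr+MSC libraries. The MRL/mpj libraries themselves stood at 0.09, -0.01 and -0.03 on that scale.

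**Figure D1:**
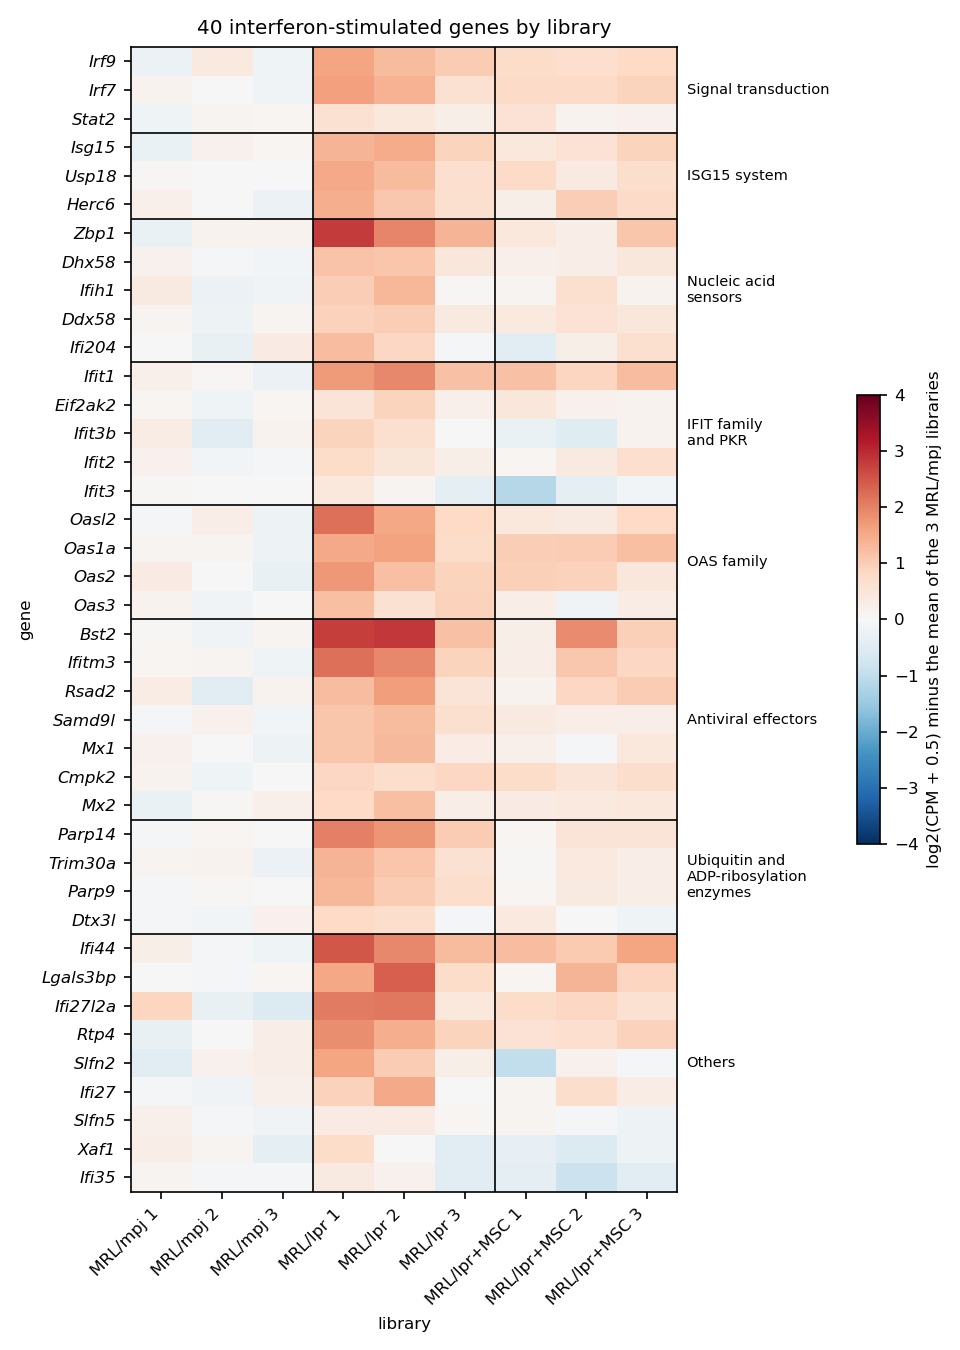
Heat map of the 40 genes (vertical axis, grouped by role) in the 9 libraries (horizontal axis), with colour giving log2(CPM + 0.5) minus the mean of the 3 MRL/mpj libraries. Red is deepest in MRL/lpr replicates 1 and 2, and Ifit3, Xaf1 and Ifi35 in the MRL/lpr+MSC columns are blue.

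Each comparison was tested with limma voom on its own 6 libraries, and a gene was called when its adjusted p over all genes tested was under 0.05 and its change at least 1.5-fold. In MRL/lpr against MRL/mpj, 37 of the 40 genes passed the filter on low counts and 13 were called, all 13 higher. Over all 16697 genes tested, 3.41% were called higher. The fitted log2 fold change was above 0 for 37 of 37, and for 52.8% of all genes tested. Its median over the 37 was 1.21, against 0.02 over all genes tested. Of the 37, 3 (Oas1a, Oas2 and Zbp1) passed the filter through the MRL/lpr libraries only and had to differ. Among the other 34, 10 were called, the median was 1.19 and 24 had all MRL/lpr libraries above all MRL/mpj libraries. A further 3 of the 40 (Oas3, Mx1 and Ifi204) were too low to be tested. All 3 MRL/lpr libraries were above all 3 MRL/mpj libraries for 27 of the 37, which holds for 19.4% of all genes tested. The number called rested on single libraries. It was 1 without MRL/mpj replicate 1, 1 without MRL/mpj replicate 2, 0 without MRL/mpj replicate 3, 1 without MRL/lpr replicate 1, 12 without MRL/lpr replicate 2 and 31 without MRL/lpr replicate 3. Calls over all genes were 967 with all 6 libraries and, in the same order, 265, 271, 179, 407, 1631 and 1390. The median of the members stayed between 1.06 and 1.47. In a test against a change of 1.5-fold, 0 of the 37 were called.

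In MRL/lpr+MSC against MRL/mpj, 35 of the 40 genes passed the filter and 5 were called, all 5 higher, where 1.93% of the 16196 genes tested were called higher. The fitted log2 fold change was above 0 for 29 of the 35, and for 51.7% of all genes tested. Its median over the 35 was 0.54, against 0.01 over all genes tested. Oas1a passed the filter through the MRL/lpr+MSC libraries only and had to differ, which leaves 4 of 34 called, and Oas2 and Zbp1 joined the genes too low to be tested. All 3 MRL/lpr+MSC libraries were above all 3 MRL/mpj libraries for 20 of the 35, which holds for 15.2% of all genes tested. The number called was 0 without MRL/mpj replicate 1, 1 without MRL/mpj replicate 2, 0 without MRL/mpj replicate 3, 11 without MRL/lpr+MSC replicate 1, 3 without replicate 2 and 0 without replicate 3, while calls over all genes, 556 with all 6 libraries, were 206, 247, 218, 1448, 366 and 275. Ifit1, Oas1a, Ifi44 and Cmpk2 were called in both comparisons, which share their control libraries, and Irf7 was called in MRL/lpr+MSC against MRL/mpj. With all 9 libraries in 1 fit, Cmpk2 kept its MRL/lpr+MSC call (limma voom adjusted p = 0.0101), and Ifit1, Oas1a, Ifi44 and Irf7 lost theirs (adjusted p from 0.0668 to 0.192). In a test against a change of 1.5-fold, 0 of the 35 were called.

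**Figure D2:**
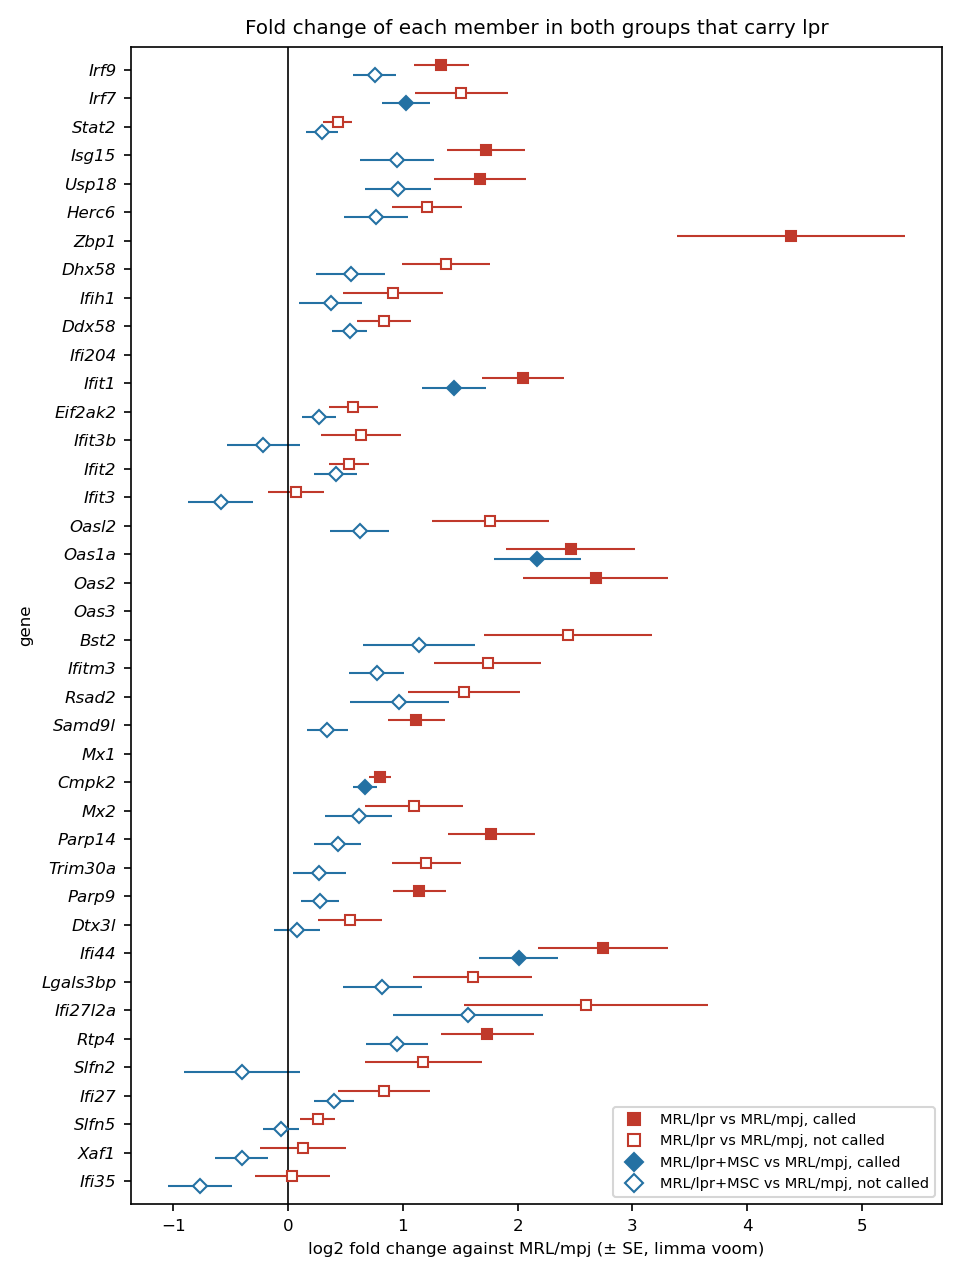
Log2 fold change against MRL/mpj (horizontal axis, ± SE from limma voom) of each gene (vertical axis) in MRL/lpr (red squares) and MRL/lpr+MSC (blue diamonds), with filled symbols for called genes and no symbol where a gene was not tested. Red symbols lie to the right of 0 for all 37 genes tested, and 6 of the 35 blue symbols lie to the left.

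The response element was looked for in front of these genes because ISGF3 binds there. The members were listed as genes induced by interferon, so an excess of the element comes with the choice of the list. The core searched was GAAA, any 2 bases, then GAAA, on both strands, overlapping matches included, in windows from 250 bases before to 50 bases after each RefSeq start (GRCm38.p6). Of the 40 genes, 28 were in the table of windows, and 15 of the 28 (53.6%) held the core, compared with 3.44% of all 32851 windows. More than 1 copy was found for 7 of the 28, compared with 0.225% of all windows. The stretches before the start of 6 genes are given here 5′ to 3′ on the strand of the gene, with each match in capitals. Ifit1, Isg15 and Oas1a were called in MRL/lpr against MRL/mpj, and Bst2, Ifit3 and Ifit3b were called in no comparison.
Ifit1, chr19:34640775-34640823, plus strand, bases -114 to -66: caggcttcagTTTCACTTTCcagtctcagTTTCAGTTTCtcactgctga
Isg15, chr4:156200865-156200906, minus strand, bases -88 to -47: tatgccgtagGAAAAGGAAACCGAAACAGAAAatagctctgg
Oas1a, chr5:120907526-120907555, minus strand, bases -30 to -1: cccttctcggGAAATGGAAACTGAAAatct
Bst2, chr8:71537577-71537612, minus strand, bases -140 to -105: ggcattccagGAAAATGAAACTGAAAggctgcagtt
Ifit3, chr19:34583363-34583426, plus strand, bases -166 to -103: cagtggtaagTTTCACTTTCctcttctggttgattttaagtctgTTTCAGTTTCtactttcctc
Ifit3b, chr19:34607759-34607822, plus strand, bases -198 to -135: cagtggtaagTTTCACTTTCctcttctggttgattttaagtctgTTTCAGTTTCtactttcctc
Isg15 held 3 overlapping copies and Oas1a and Bst2 held 2 each on the strand of the gene, and the pairs of Ifit1, Ifit3 and Ifit3b lay on the other strand, where the core reads TTTC, 2 bases, TTTC. The 64 bases shown for Ifit3 and Ifit3b were identical. Stat2, Oas3, Rsad2, Trim30a and Slfn5 had 1 copy each before the start, and the matches of Ifih1, Ddx58, Ifitm3 and Eif2ak2 lay after it. In MRL/lpr against MRL/mpj, 3 of the 14 tested genes with a match were called (median log2 fold change 1.06), as were 4 of the 13 without one (median 1.18) and 6 of the 10 whose window was not in the table (median 1.70), and differences between these sets were not tested.

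**Figure D3:**
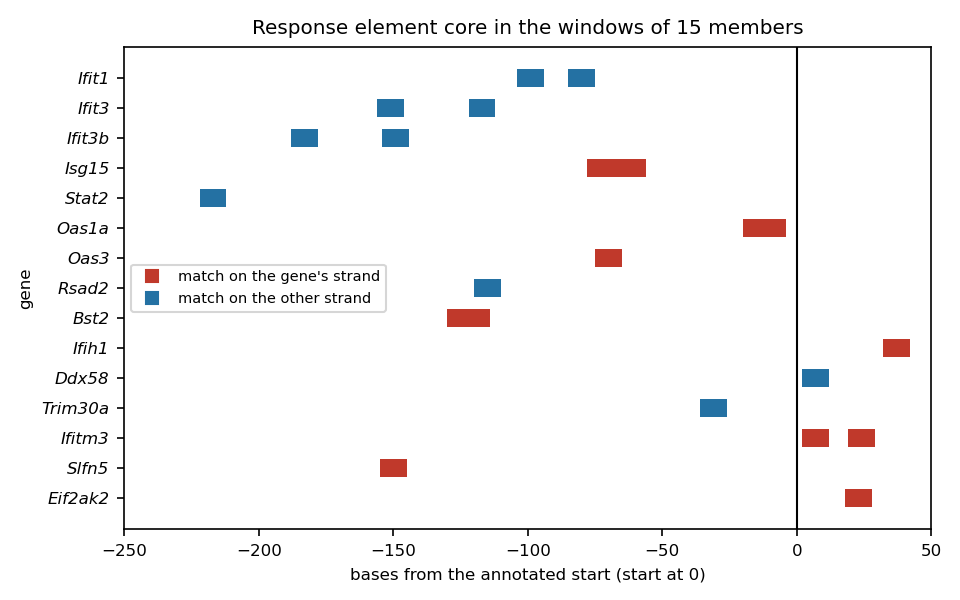
Position of each match of the response element core (bars, 10 bases long) relative to the annotated start at 0 (horizontal axis, bases) in the windows of the 15 genes that hold one (vertical axis), red on the strand of the gene and blue on the other. Matches of 11 genes lie before the start.

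Signal transduction was represented by Irf9 and Stat2, both subunits of ISGF3, and by Irf7, a factor that drives transcription of interferon alpha genes. Irf9 (chr14:55603571-55610030, plus strand) had 5.85, 9.29 and 5.99 CPM in MRL/mpj, 21.3, 17.3 and 14.4 CPM in MRL/lpr and 11.7, 11.2 and 12.4 in MRL/lpr+MSC. The 3 groups did not overlap, and MRL/lpr+MSC lay in the middle. Irf9 rose 2.52-fold in MRL/lpr (log2 fold change 1.34 ± 0.24 SE, limma voom adjusted p = 0.0247), and in MRL/lpr+MSC it was 1.68-fold higher without passing the test (adjusted p = 0.0656). Irf7 had 1.40, 1.25 and 1.09 CPM in MRL/mpj, 4.93, 4.10 and 2.16 CPM in MRL/lpr and 2.44, 2.46 and 2.74 in MRL/lpr+MSC. Both lpr groups were above every MRL/mpj library, with the wider spread in MRL/lpr. Irf7 rose 2.04-fold in MRL/lpr+MSC (log2 fold change 1.03 ± 0.21 SE, limma voom adjusted p = 0.0403), and its larger difference in MRL/lpr, 2.85-fold, had an adjusted p of 0.0625. Stat2, the most abundant of the 3 per length at a mean of 6.38 FPKM (a level scaled by gene length and library size), had 20.6, 25.5 and 24.5 CPM in MRL/mpj, 35.7, 31.4 and 27.9 CPM in MRL/lpr and 34.9, 26.2 and 26.5 in MRL/lpr+MSC. Its lpr libraries were all above the control libraries by a small margin, and the log2 fold changes of 0.43 in MRL/lpr and 0.30 in MRL/lpr+MSC did not pass the test.

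The ISG15 system attaches the ubiquitin-like protein ISG15 to other proteins. Isg15 itself (chr4:156199424-156200818, minus strand) had 0.50, 0.860 and 0.763 CPM in MRL/mpj, 2.59, 2.84 and 1.73 CPM in MRL/lpr and 1.09, 1.30 and 1.73 in MRL/lpr+MSC. All lpr libraries were above all control libraries, and the highest MRL/lpr+MSC library was just below the lowest MRL/lpr library. Isg15 rose 3.30-fold in MRL/lpr (log2 fold change 1.72 ± 0.34 SE, limma voom adjusted p = 0.0303). In MRL/lpr+MSC the fitted difference was 1.93-fold (adjusted p = 0.142). Usp18, the protease that removes ISG15 and dampens IFNAR2 signalling, had 0.60, 0.559 and 0.545 CPM in MRL/mpj, 2.52, 2.07 and 1.18 CPM in MRL/lpr and 1.30, 0.883 and 1.24 in MRL/lpr+MSC. The controls were close together and below every lpr library. Usp18 rose 3.19-fold in MRL/lpr (log2 fold change 1.67 ± 0.40 SE, limma voom adjusted p = 0.0476), with 1.94-fold in MRL/lpr+MSC (adjusted p = 0.108). Herc6, the mouse ISG15 ligase, was 2.31-fold higher in MRL/lpr (adjusted p = 0.0547) and 1.70-fold higher in MRL/lpr+MSC (adjusted p = 0.162), neither past the test. Per length Isg15 was the most abundant of the 3, at a mean of 1.96 FPKM.

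Among the sensors of nucleic acid, Zbp1, which binds Z-form nucleic acid and can start necroptosis, was close to absent from the controls. The gene (chr2:173206612-173218923, minus strand) had 0, 4 and 3 counts in MRL/mpj, 107, 43 and 25 in MRL/lpr and 6, 5 and 18 in MRL/lpr+MSC. In CPM these were 0, 0.172 and 0.163, then 3.74, 1.85 and 1.06, then 0.311, 0.232 and 0.796. The fitted log2 fold change of Zbp1 in MRL/lpr was 4.38 ± 1.00 SE (limma voom adjusted p = 0.0446), a size that depends on a handful of control counts and a direction that the filter fixed, and it was too low to be tested in MRL/lpr+MSC against MRL/mpj. Ddx58, which encodes RIG-I and was the most abundant sensor per length at 1.06 FPKM, had 5.75, 4.52 and 5.77 CPM in MRL/mpj, 10.6, 11.0 and 6.98 CPM in MRL/lpr and 7.16, 8.27 and 7.43 in MRL/lpr+MSC. No lpr library reached down to the controls, and neither the log2 fold change of 0.83 in MRL/lpr (adjusted p = 0.0699) nor that of 0.54 in MRL/lpr+MSC (adjusted p = 0.0982) passed. The related sensors Ifih1 (MDA5) and Dhx58 (LGP2) had log2 fold changes of 0.91 and 1.38 in MRL/lpr and of 0.37 and 0.54 in MRL/lpr+MSC, with adjusted p between 0.0679 and 0.471. Ifi204, a DNA sensor of the AIM2-like family, had 3, 1 and 6 counts in MRL/mpj, 30, 16 and 3 in MRL/lpr and 0, 6 and 12 in MRL/lpr+MSC, so its groups overlapped. Of its transcript words of 50 bases, 20% also occur in another gene.

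The IFIT proteins bind viral RNA and block its translation, and PKR, encoded by Eif2ak2, phosphorylates the initiation factor eIF2 alpha in response to double-stranded RNA. The 4 Ifit genes measured lie side by side on chromosome 19, within 1 Mb of Fas. They did not move alike. Ifit1 (chr19:34640871-34650009, plus strand) had 1.05, 0.903 and 0.654 CPM in MRL/mpj, 3.92, 4.66 and 2.58 CPM in MRL/lpr and 2.54, 1.95 and 2.70 in MRL/lpr+MSC. Every lpr library of either group was above every control library. Ifit1 rose 4.13-fold in MRL/lpr (log2 fold change 2.05 ± 0.35 SE, limma voom adjusted p = 0.0218) and 2.72-fold in MRL/lpr+MSC (1.45 ± 0.28 SE, adjusted p = 0.0336). Ifit3, the most abundant of the group per length at 2.65 FPKM, had 5.20, 4.99 and 4.96 CPM in MRL/mpj, 6.96, 5.43 and 3.72 CPM in MRL/lpr and 2.02, 3.72 and 4.69 in MRL/lpr+MSC. Its controls sat inside the range of MRL/lpr and above all 3 MRL/lpr+MSC libraries. The log2 fold changes of Ifit3 were 0.07 ± 0.25 SE in MRL/lpr (adjusted p = 0.875) and -0.59 ± 0.29 SE in MRL/lpr+MSC (adjusted p = 0.270). Its near copy Ifit3b had 0.63 and -0.22 (adjusted p = 0.264 and 0.733), and Ifit2 had 0.53 and 0.41 (adjusted p = 0.0984 and 0.241). Words of 50 bases shared with Ifit3b make up 51.2% of the Ifit3 transcripts, so the counting may have split or dropped reads of this pair. Eif2ak2 had log2 fold changes of 0.57 and 0.27 and did not pass. Without the 4 Ifit genes next to Fas, 12 of 33 members were called in MRL/lpr with a median of 1.34, and 4 of 31 in MRL/lpr+MSC with a median of 0.61.

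The OAS proteins make short 2′-5′ linked adenylates that activate RNase L. Oas1a had 0.25, 0.258 and 0.109 CPM in MRL/mpj, 1.5, 1.64 and 0.677 CPM in MRL/lpr and 0.882, 0.929 and 1.11 in MRL/lpr+MSC. Controls were between 2 and 6 counts, and the 2 lpr groups overlapped each other but not the controls. The fitted differences of Oas1a were 5.51-fold in MRL/lpr (log2 fold change 2.46 ± 0.56 SE, limma voom adjusted p = 0.0435) and 4.5-fold in MRL/lpr+MSC (2.17 ± 0.38 SE, adjusted p = 0.028), in a direction that the filter fixed. The near copy Oas1g shares 57.6% of its transcript words of 50 bases, so some of these reads may belong to that gene. Oas2 had 7, 4 and 1 counts in MRL/mpj, 50, 25 and 18 in MRL/lpr and 16, 17 and 10 in MRL/lpr+MSC. It was fitted 6.4-fold higher in MRL/lpr (log2 fold change 2.68 ± 0.63 SE, limma voom adjusted p = 0.0463), again in a direction fixed by the filter, and was not tested in MRL/lpr+MSC against MRL/mpj. Oasl2, an OAS-like protein and the most abundant of the family at 0.618 FPKM, had 1.80, 2.41 and 1.58 CPM in MRL/mpj, 10.6, 6.6 and 3.72 CPM in MRL/lpr and 2.70, 2.56 and 3.72 in MRL/lpr+MSC. Its lowest MRL/lpr library was just above the highest MRL/lpr+MSC library, and the log2 fold change of 1.76 ± 0.51 SE in MRL/lpr had an adjusted p of 0.0755, where MRL/lpr+MSC was 1.54-fold above MRL/mpj (adjusted p = 0.204). Oas3 had 2, 0 and 1 counts in MRL/mpj, 22, 8 and 13 in MRL/lpr and 3, 0 and 4 in MRL/lpr+MSC, without a test.

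The antiviral effectors act on entry, replication or release of viruses. Cmpk2 (chr12:26469204-26479837, plus strand), a mitochondrial nucleotide kinase encoded next to Rsad2, had 29.5, 23.9 and 27.3 CPM in MRL/mpj, 47.7, 43.7 and 47.8 CPM in MRL/lpr and 44.6, 38.5 and 44.4 in MRL/lpr+MSC. The controls were apart from both lpr groups, which overlapped, and the libraries of each group were close together. Cmpk2 rose 1.74-fold in MRL/lpr (log2 fold change 0.80 ± 0.10 SE, limma voom adjusted p = 0.00811) and 1.59-fold in MRL/lpr+MSC (0.67 ± 0.11 SE, adjusted p = 0.0197), the smallest change among the called members and the smallest adjusted p. Samd9l, which restricts poxviruses, had 2.65, 3.27 and 2.56 CPM in MRL/mpj, 6.61, 7.46 and 4.69 CPM in MRL/lpr and 3.79, 3.48 and 3.50 in MRL/lpr+MSC. The 3 groups did not overlap, and MRL/lpr+MSC lay nearer to the controls. Samd9l rose 2.17-fold in MRL/lpr (log2 fold change 1.12 ± 0.25 SE, limma voom adjusted p = 0.0389), with 1.27-fold in MRL/lpr+MSC (adjusted p = 0.3). Ifitm3, which blocks fusion of viruses with endosomes, had the highest mean of all 40 genes per length, at 25.3 FPKM. It had 8.69, 8.82 and 7.19 CPM in MRL/mpj, 39.8, 32.5 and 15.5 CPM in MRL/lpr and 9.97, 18 and 15.0 in MRL/lpr+MSC. Its fitted differences were 3.33-fold and 1.71-fold, with adjusted p of 0.0661 and 0.117. Bst2 (tetherin) was 5.41-fold and Rsad2 (viperin) 2.89-fold higher in MRL/lpr without passing (adjusted p = 0.0826 and 0.0922), with MRL/lpr libraries of Bst2 at 26.0, 26.6 and 8.20 CPM. Bst2 was fitted 2.21-fold and Rsad2 1.96-fold higher in MRL/lpr+MSC (adjusted p = 0.222 and 0.233). Mx2, a dynamin-like GTPase, was 2.14-fold higher in MRL/lpr and 1.53-fold higher in MRL/lpr+MSC without passing (adjusted p = 0.138 and 0.262), and Mx1 had 3, 2 and 0 counts in MRL/mpj, 21, 21 and 5 in MRL/lpr and 3, 1 and 6 in MRL/lpr+MSC.

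**Figure D4:**
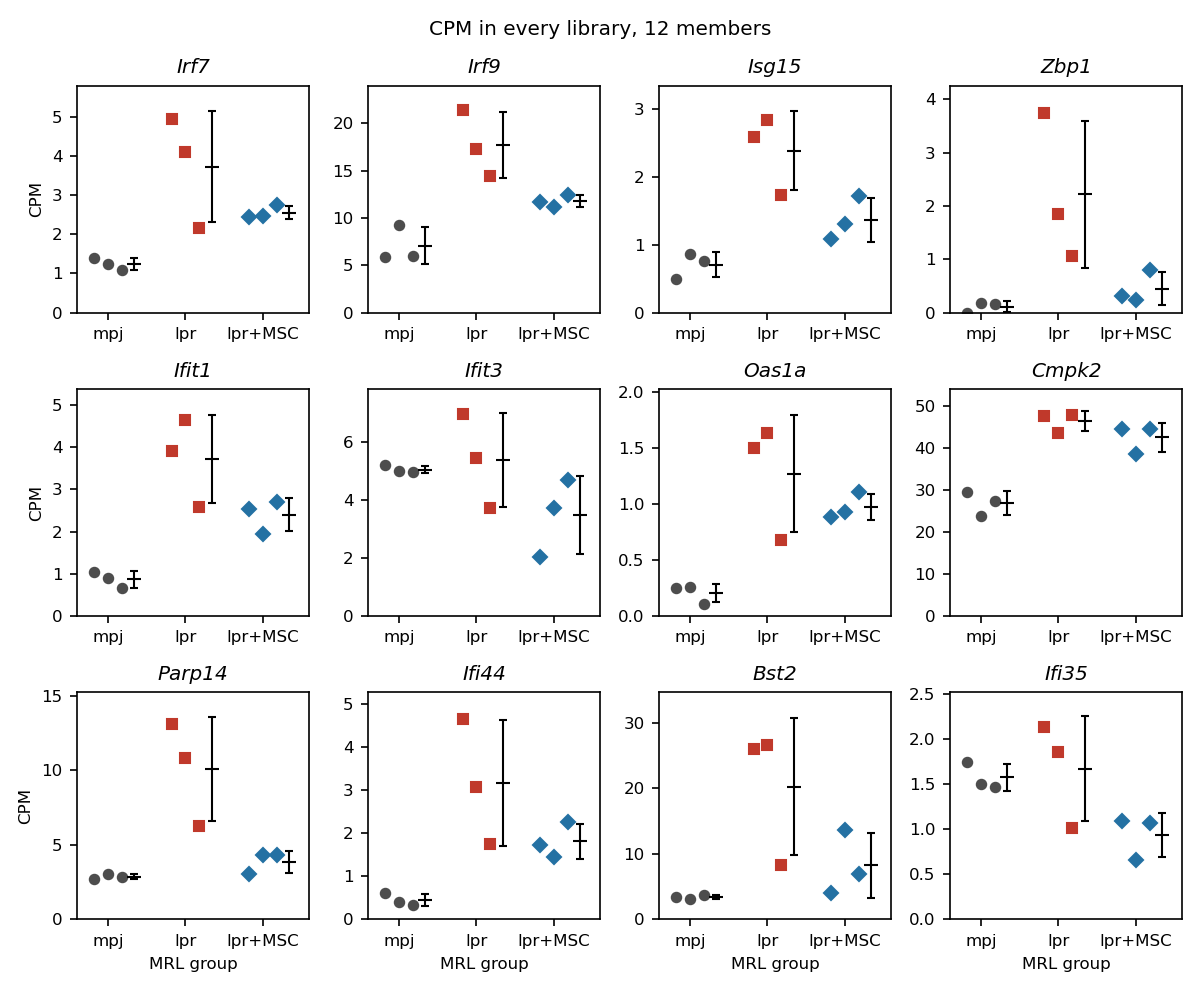
CPM (vertical axis of each panel, starting at 0) of 12 members in the 9 libraries by group (horizontal axis), with points for libraries in replicate order and a bar with whiskers for mean ± SD. Cmpk2 is tight within each group at a mean of 26.9, 46.4 and 42.5 CPM, and MRL/lpr replicate 3 is the lowest of its group in the other 11 panels.

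Parp9 and Dtx3l encode partner proteins, an ADP-ribosyltransferase and a ubiquitin ligase that act on histones, and Parp14 encodes a further ADP-ribosyltransferase. Parp14 (chr16:35832874-35871544, minus strand) had 2.70, 3.01 and 2.83 CPM in MRL/mpj, 13.1, 10.8 and 6.26 CPM in MRL/lpr and 3.01, 4.27 and 4.29 in MRL/lpr+MSC. The lowest MRL/lpr library was above the highest of either other group. Parp14 rose 3.42-fold in MRL/lpr (log2 fold change 1.77 ± 0.38 SE, limma voom adjusted p = 0.0373), and MRL/lpr+MSC was 1.35-fold above MRL/mpj (adjusted p = 0.264). Parp9 had 3.10, 3.40 and 3.27 CPM in MRL/mpj, 8.96, 7.11 and 5.67 CPM in MRL/lpr and 3.48, 4.32 and 4.03 in MRL/lpr+MSC. Again the MRL/lpr libraries stood above the other 6. Parp9 rose 2.21-fold in MRL/lpr (log2 fold change 1.14 ± 0.23 SE, limma voom adjusted p = 0.0321) and had 1.21-fold in MRL/lpr+MSC (adjusted p = 0.372). Dtx3l, the most abundant of the 4 per length at 1.04 FPKM, had 4.80, 4.60 and 5.72 CPM in MRL/mpj, 9.03, 8.41 and 4.86 CPM in MRL/lpr and 6.80, 4.93 and 4.42 in MRL/lpr+MSC. Its groups overlapped (1.46-fold in MRL/lpr, adjusted p = 0.236, and 1.05-fold in MRL/lpr+MSC, adjusted p = 0.857). Parp9 and Dtx3l overlap head to head on opposite strands of chromosome 16 and share 9.40% of the exon bases of Parp9, and since it is not stated whether the counting used strand, reads there cannot be assigned to either. Trim30a, a mouse TRIM protein that restrains Toll-like receptor signalling, was 2.30-fold higher in MRL/lpr (adjusted p = 0.0531) and 1.21-fold higher in MRL/lpr+MSC (adjusted p = 0.523), neither past the test.

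Of the remaining 9 genes, 2 were called in MRL/lpr. Ifi44 (chr3:151730922-151749960, minus strand), a protein with a GTPase-like fold, had 0.60, 0.387 and 0.327 CPM in MRL/mpj, 4.65, 3.06 and 1.73 CPM in MRL/lpr and 1.71, 1.44 and 2.26 in MRL/lpr+MSC. All lpr libraries were above the controls. Ifi44 rose 6.69-fold in MRL/lpr (log2 fold change 2.74 ± 0.57 SE, limma voom adjusted p = 0.0338) and 4.03-fold in MRL/lpr+MSC (2.01 ± 0.35 SE, adjusted p = 0.0257). Rtp4, first described as a chaperone of receptors, had 0.899, 1.25 and 1.58 CPM in MRL/mpj, 5.74, 4.18 and 2.66 CPM in MRL/lpr and 2.08, 2.23 and 2.74 in MRL/lpr+MSC. It rose 3.33-fold in MRL/lpr (log2 fold change 1.74 ± 0.41 SE, limma voom adjusted p = 0.0458), with 1.93-fold in MRL/lpr+MSC (adjusted p = 0.0935). Ifi27, a mitochondrial protein and second in mean level per length at 25.0 FPKM, had 25.0, 23.3 and 29.9 CPM in MRL/mpj, 49.0, 75.7 and 25.9 CPM in MRL/lpr and 28.2, 42.8 and 31.8 in MRL/lpr+MSC. Its log2 fold changes of 0.83 and 0.40 did not pass (adjusted p = 0.213 and 0.228). Its highest library in each lpr group was replicate 2, the one with the most choroid plexus RNA in that group. This was the case for 6 of the 40 genes, namely Bst2, Ifi27, Ifi27l2a, Ifih1, Ddx58 and Lgals3bp. The share of all genes with this order was not counted, and a link with choroid plexus RNA was not tested. Lgals3bp, a secreted glycoprotein, had 26.1, 46.6 and 14.6 CPM in MRL/lpr and 9.08, 22.7 and 15.8 in MRL/lpr+MSC. In MRL/lpr, Ifi27l2a, Slfn2 and Lgals3bp stood at 2.59, 1.18 and 1.61 on the log2 scale (adjusted p = 0.159, 0.175 and 0.0974). The same genes stood in MRL/lpr+MSC at 1.57, -0.40 and 0.82 (adjusted p = 0.213, 0.686 and 0.219), so that the sign of Slfn2 turned. A further 3 members had fitted values near 0 in MRL/lpr, namely Ifi35 at 0.04 ± 0.33 SE, the apoptosis-linked Xaf1 at 0.13 ± 0.37 and Slfn5, a schlafen protein, at 0.26 ± 0.15. In MRL/lpr+MSC their log2 fold changes against MRL/mpj were -0.77, -0.41 and -0.07, none past the test.

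Other genes of the pathway, 54 in number and not among the 40, were followed from the ligands to the inhibitors. Of 17 interferon ligands, 14 had no count in any library, among them Ifnb1 and the alpha genes Ifna1 and Ifna4. Ifna2 had 1 count in MRL/mpj replicate 1, and Ifnk had 1 count in MRL/lpr replicate 1 and 1 in MRL/lpr+MSC replicate 2. Ifng, the ligand of the other interferon receptor, had 0, 0 and 0 counts in MRL/mpj, 14, 9 and 4 in MRL/lpr and 0, 1 and 0 in MRL/lpr+MSC. At this depth interferon ligand transcripts were therefore not detectable in the hippocampus except for that handful, and none was tested. The receptor genes were well covered. Ifnar1 had 42.4, 46.5 and 40.2 CPM in MRL/mpj, 52.5, 45.5 and 53.6 CPM in MRL/lpr and 51.7, 46.7 and 46.7 in MRL/lpr+MSC, and Ifnar2 had 11.2, 13.9 and 10.3, then 15.6, 17 and 14.5, then 11.0, 14.0 and 12.7. Neither passed the test in MRL/lpr, where Ifnar1 was at 0.23 and Ifnar2 at 0.41 on the log2 scale (adjusted p = 0.155 and 0.101), nor in MRL/lpr+MSC, at 0.17 and 0.09 (adjusted p = 0.275 and 0.770).

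Of the 54 pathway genes, 34 were tested and 3 were called in MRL/lpr against MRL/mpj, all 3 higher, where 3.41% of all genes were, and 0 of 34 by limma voom in MRL/lpr+MSC against MRL/mpj, where limma-trend and library quality weights also called 0. An unadjusted p under 0.05 was reached by 20 and 7 of the 34 in these comparisons, and by 30.4% and 22.9% of all genes tested. The 3 were Irf1, Mavs and Socs1. Irf1, a factor induced by interferon gamma above all, had 5.45, 5.72 and 5.45 CPM in MRL/mpj, 19.2, 14.5 and 9.60 CPM in MRL/lpr and 6.38, 6.18 and 7.03 in MRL/lpr+MSC. The groups did not overlap, and MRL/lpr+MSC lay close to the controls. It rose 2.55-fold in MRL/lpr (log2 fold change 1.35 ± 0.32 SE, limma voom adjusted p = 0.049), with 1.18-fold in MRL/lpr+MSC (adjusted p = 0.324). Socs1, an inhibitor of JAK signalling, had 0.45, 0.301 and 0.545 CPM in MRL/mpj, 3.15, 1.64 and 1.27 CPM in MRL/lpr and 0.571, 0.743 and 0.619 in MRL/lpr+MSC, and rose 4.43-fold in MRL/lpr (limma voom adjusted p = 0.0473), with 1.52-fold in MRL/lpr+MSC (adjusted p = 0.336). Mavs, the mitochondrial adaptor of RIG-I and MDA5, had 7.24, 7.48 and 6.70 CPM in MRL/mpj, 12.4, 12.2 and 9.90 CPM in MRL/lpr and 6.33, 11.7 and 9.07 in MRL/lpr+MSC, and rose 1.60-fold in MRL/lpr (limma voom adjusted p = 0.0354), with 1.24-fold in MRL/lpr+MSC (adjusted p = 0.470). The median log2 fold change of the 34 was 0.44 in MRL/lpr and 0.13 in MRL/lpr+MSC.

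In the third comparison, MRL/lpr+MSC against MRL/lpr, 38 of the 40 genes were tested and none was called. Of all 16758 genes tested, 0% (0 genes) were called by limma voom, and limma-trend and the fit with library quality weights also called 0. The fitted log2 fold change was below 0 for 38 of 38, and for 51.0% of all genes tested. It ran from -2.27 for Zbp1 to -0.11 for Ifit2, with a median of -0.72 against -0.00426 over all genes tested. The smallest adjusted p was 0.921, and an unadjusted p under 0.05 was reached by 10 of the 38 and by 647 of the 16758 genes (3.86%). Those 10 were Ifit3b, Isg15, Irf9, Oasl2, Zbp1, Parp9, Parp14, Trim30a, Slfn2 and Samd9l. All 3 MRL/lpr+MSC libraries were below all 3 MRL/lpr libraries for 9 of the 38, which holds for 5.72% of all genes tested, and for the untested Oas3 besides. The median moved between -0.48 without MRL/lpr replicate 1 and -0.96 without MRL/lpr replicate 3. The log2 difference of Irf9 was -0.58 ± 0.17 SE, while Cmpk2 had -0.13 ± 0.09 and Oas1a -0.29 ± 0.39. The ADP-ribosylation genes had larger fitted differences, -1.34 ± 0.36 SE for Parp14 and -0.86 ± 0.23 for Parp9.

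Lists of blood-borne cell types differed in how they went with the members. The 7 T cell markers summed to 2.55, 1.85 and 2.12 CPM in MRL/mpj, 21.5, 14.2 and 6.56 CPM in MRL/lpr and 2.34, 3.72 and 5.13 in MRL/lpr+MSC. In MRL/lpr against MRL/mpj 5 of the 7 were called higher, all 5 among the 6 that passed the filter through the MRL/lpr libraries only and had to differ, and Cd3g and Cd2 had no count in any MRL/mpj library. Against MRL/mpj, 1 of the 7 could be tested in MRL/lpr+MSC. The 3 plasma cell markers summed to 1.81 to 2.70 CPM in MRL/mpj, 21.5 to 120 in MRL/lpr and 5.71 to 14.1 in MRL/lpr+MSC, and the 8 markers of monocytes and macrophages to 21.5 to 42.8, 35.8 to 104 and 12.1 to 39.7. The median log2 fold change of the 8 monocyte and macrophage markers tested in MRL/lpr was 0.99. Of these, 1 passed the filter through the MRL/lpr libraries only, and the median of the other 7 was 0.40. The 6 tested in MRL/lpr+MSC had a median of -0.34. B cell markers summed to 7.24 to 22.5, 14.0 to 27 and 8.22 to 11.9 CPM, with overlap between the groups. In MRL/lpr 2 of the 4 tested were called higher (median log2 fold change 1.83), where 3.41% of all genes were. Of these calls, 1 was among the 2 markers that passed the filter through the MRL/lpr libraries only. The 2 tested in MRL/lpr+MSC had a median of 0.13, and 0 were called. Neutrophil markers, at 2.18 to 6.85, 2.28 to 2.48 and 0.467 to 24.8 CPM, and markers of red blood cells, at 58.4 to 165, 52.7 to 102 and 27.8 to 150, were not higher in MRL/lpr, with medians of -0.63 and -0.23. The order of the MRL/lpr libraries by the member median was replicate 1, then 2, then 3. It was also their order by the T cell, B cell, plasma cell and microglia sums. Neutrophil sums had it only by a near tie, at 2.48, 2.285 and 2.284 CPM. The other marker lists had other orders, among them monocytes and macrophages at 100, 104 and 35.8 CPM. In MRL/lpr+MSC the member median and the T cell sum both put replicate 3 first and replicate 1 last. The plasma cell, neutrophil and microglia sums put replicate 2 first there. The 10 microglia markers summed to 371 to 414 CPM in MRL/mpj, 330 to 446 in MRL/lpr and 328 to 371 in MRL/lpr+MSC, and limma voom called 0 of the 10 against MRL/mpj in either group (2 and 4 of them had an unadjusted p under 0.05, beside 30.4% and 22.9% of all genes). The 6 endothelial markers stood at 262 to 290 CPM in MRL/mpj, 321 to 334 in MRL/lpr and 342 to 376 in MRL/lpr+MSC, and the 6 markers of striatal neurons, which lie outside the hippocampus, at 69.1 to 78.4, 119 to 143 and 81.1 to 177. The sums of both lists were therefore higher in all 6 lpr libraries than in any control library. Of the single endothelial markers, 2 of 6 in MRL/lpr and 3 of 6 in MRL/lpr+MSC had all libraries above all controls. For striatal markers these were 5 of 6 and 2 of 6, and for all genes tested 19.4% and 15.2%. Median log2 fold changes were 0.14 and 0.30 for endothelial and 0.69 and 0.80 for striatal markers. Called higher were 2 of 6 endothelial markers in each lpr group and 1 of 6 striatal markers in MRL/lpr (0 in MRL/lpr+MSC). Over all genes, 3.41% and 1.93% were called higher. Of the 7 hippocampal neuron markers, 2 were called lower in MRL/lpr (median log2 fold change -0.65) and 1 in MRL/lpr+MSC (-0.47). Over all genes tested, 398 of 16697 and 243 of 16196 were called lower. Choroid plexus sums differed widely within groups. The part of these cell types in the differences of the 40 genes was not tested.

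**Figure D5:**
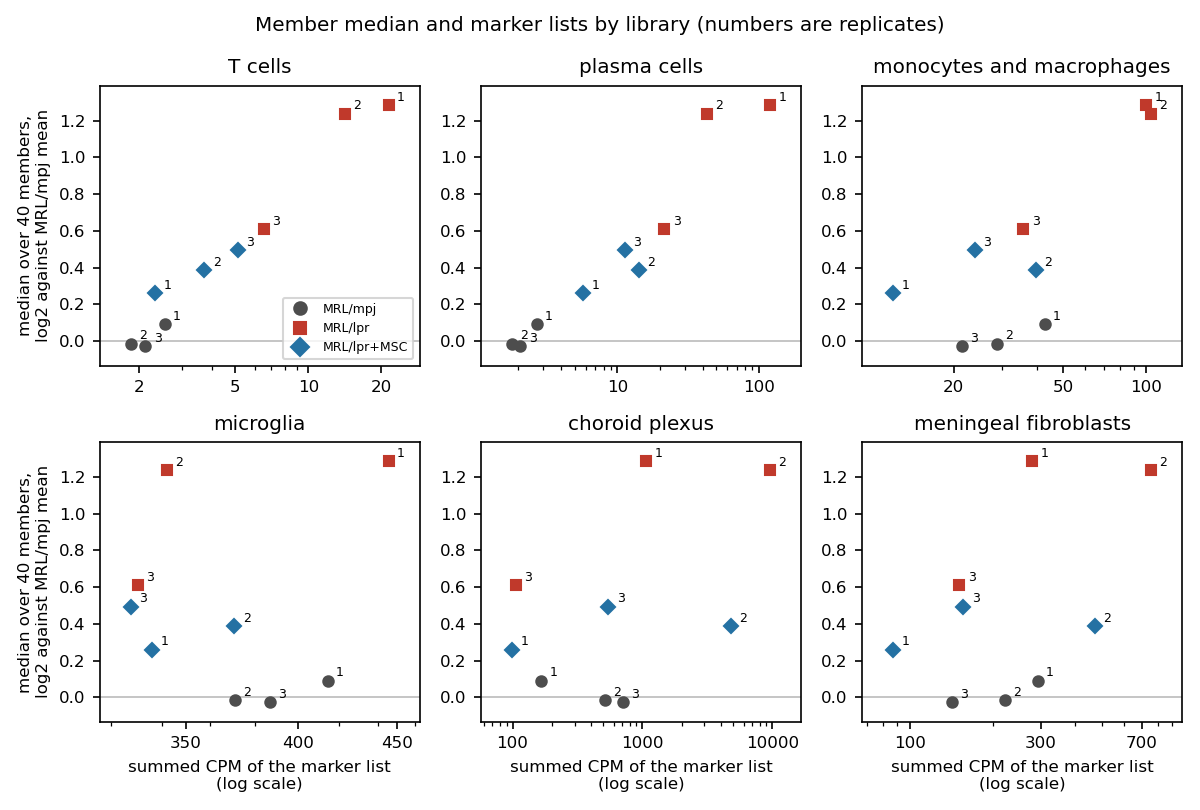
Median of the 40 genes on the log2(CPM + 0.5) scale against the MRL/mpj mean (vertical axis) plotted against the summed CPM of 6 marker lists (horizontal axes, log scale) for the 9 libraries, numbered by replicate and marked by group. Libraries are ordered alike on both axes in the T cell panel from the MRL/lpr+MSC group upward. Microglia sums of 328 to 446 CPM have that order within MRL/lpr but not within MRL/lpr+MSC.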

How the data were processed

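Hippocampal poly(A) RNA of 9 libraries was sequenced. Per the study's methods, the authors aligned reads with STAR to mm10 and counted them per gene with HTSeq, whereas the submitters' processing notes name TopHat2. The deposited matrix holds these raw counts (registered as other values because of its column separator), and the deposited FPKM tables hold counts the authors divided by gene length and library size. FPKM was used only to compare levels between genes.

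Counts were scaled by TMM (trimming 30% of log ratios and 5% of levels). Genes needed the CPM of 10 counts in a library of median size in 3 libraries and 15 counts in total. The test was limma voom (limma 3.58.1, R 4.3.3, statmod 1.5.0) with robust moderation, and p-values were adjusted by Benjamini-Hochberg across the tested genes. It replaced the quasi-likelihood count test that had been planned, which was not run. A call needed an adjusted p under 0.05 and a 1.5-fold change. Of the columns of per-sample values, 0 had no sample. The members and lists were chosen with earlier results of these data known. Every member is named. Values in every library are given for members called in a comparison and for the most abundant member of each role. Windows came from RefSeq, positions from GENCODE M21 (both GRCm38). The test was tried on simulated data with the same spread for all genes and no outlying library. For MRL/lpr against MRL/mpj it recovered 79 of 96 changes of 2-fold and 98 of 98 of 4-fold, with 7 false calls. That setting is simpler than these data, so it does not show how the test performs on them. No pair of libraries agreed within sampling noise (chi-square per gene 10.7 to 70.9). A pathway gene that the rule names is not reported here.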

Additional observations from a re-analysis of the deposited data

How the results depend on the processing

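In MRL/lpr against MRL/mpj, 13 members were called, 0 in a test against a 1.5-fold change, 20 by limma-trend and 24 with library quality weights, the last pair being alternatives chosen after seeing the data. Leaving out single libraries gave 0 to 31. In MRL/lpr+MSC against MRL/mpj, 5 were called, 0 against a 1.5-fold change, 1 with all 9 libraries fitted together, 10 with quality weights and 0 to 11 with a library left out. Among pathway genes in MRL/lpr, 3 were called, 0 against a 1.5-fold change, 14 with quality weights and 0 to 11 with a library left out. Over all genes the calls numbered 967 in MRL/lpr (104 against a 1.5-fold change, 2065 with quality weights, 179 to 1631 with a library left out) and 556 in MRL/lpr+MSC (100, 1177 and 206 to 1448). The median in MRL/lpr+MSC was 0.54 and 0.43 at 1 CPM in 3 libraries. The cause of these shifts was not tested.

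Whether the replicate numbers pair the samples is not known. Of 9 same-numbered pairs, 5 had deviations correlated above 0.1 (range -0.20 to 0.40). Differently numbered pairs were not compared, so these values cannot decide it. With the replicate block, 21 members and 6 pathway genes were called in MRL/lpr (1333 genes over all) and 1 member, Cmpk2, in MRL/lpr+MSC (280 over all). None of 249 alternatives for single members changed the direction. Calls between MRL/lpr+MSC and MRL/lpr numbered 0 throughout. The planned quasi-likelihood test and the alternative with its own size factors and Wald test were not run. Depth limits Oas3, Mx1 and Ifi204 most.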
